A study of Mus musculus with 42 samples.

Results

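The collagen genes were followed here through 2 routes by which mouse embryonic stem cells (ESCs) leave the pluripotent state. Members were all genes whose symbol is Col, a number, the letter a and a number, each of which encodes 1 collagen alpha chain. The rule found 36 of the 16753 genes in the embryoid body (EB) table and 27 of the 16345 genes in the epiblast-like cell (EpiLC) table. All 27 stood in both tables, which together name 17552 genes. The 9 chains found in the EB table alone were Col3a1, Col4a6, Col6a2, Col6a3, Col9a1, Col14a1, Col15a1, Col24a1 and Col27a1.

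Collagens are extracellular proteins built from alpha chains wound into a triple helix. Fibrillar collagens such as types I, II, III and V form the rope-like fibrils of connective tissue and cartilage, whereas type IV collagen forms the sheet-like network of basement membranes. In the early mouse embryo basement membranes form beneath the epiblast and primitive endoderm, and parietal endoderm is a rich source of type IV collagen. Fibril-associated collagens (FACITs) sit on fibril surfaces, type VI forms beaded filaments, type VII anchors epidermal basement membrane, and multiplexins such as type XVIII are basement membrane proteoglycans. New chains are hydroxylated and folded in the endoplasmic reticulum, trimmed outside the cell, and cross-linked.

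All libraries were from mouse ESCs, 32 of polyA RNA and 10 of small RNA. Each polyA condition and time had 1 library. The KH2-ISY1 line carries Flag-tagged ISY1, a splicing factor, under control of doxycycline (Dox), and the deposited study concerns ISY1 and the microRNA pathway. The EB course comprised 7 KH2-ISY1 libraries without Dox, namely day 0 in serum/LIF and EB days 1, 2, 4, 8, 10 and 13, beside 1 library of serum/LIF cells with Dox. The EpiLC course comprised 10 KH2-ISY1 libraries without Dox, taken from 2i/LIF at 0 h and then at 6, 12, 18, 24, 30, 36, 48, 72 and 96 h. A further 4 EpiLC libraries had Dox (24, 48, 72 and 96 h), and 6 came from a DGCR8 knockout line (0, 6, 24, 48, 72 and 96 h), which lacks a protein needed to cut primary microRNA transcripts. The last 4 were converted ESCs (cESCs), cells put back into 2i/LIF after 24 h or 48 h as EpiLCs with or without Dox. No line without the ISY1 transgene was given Dox, so Dox itself and ISY1 cannot be told apart. Because the knockout cells are not KH2-ISY1 cells, line and DGCR8 loss cannot be told apart.

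The small RNA libraries came from KH2-ISY1 cells on both courses and from V6.5 ESCs given control siRNA (1 library) or siRNA against Isy1 (2 libraries, not stated to be replicates). Values are the authors' normalised read counts, called units below. Where whole reads could be recovered (24 of 32 polyA libraries) 1 read was worth 0.0952 to 0.934 units, and the totals were 5.8 to 56.02 M reads. The day 0, 1 and 2 libraries without Dox held 23.71 to 56.02 M reads and the day 4 to 13 libraries 8.82 to 9.51 M reads, so depth and day cannot be told apart in the EB course. The pluripotency markers Pou5f1, Nanog, Sox2 and Zfp42 fell in both courses (4 of 4 in each), and the formative markers Fgf5, Pou3f1 and Dnmt3b rose in the EpiLC course. Isy1 stood at 707.7 to 3038.3 units in the 4 EpiLC libraries with Dox against 396.5 to 557.5 at the same hours without. Dgcr8 stood at 36.8 to 44.5 units in the knockout libraries against 75.2 to 231 in KH2-ISY1 at the same hours. Both tables are counts per gene without transcript lengths, so levels are compared between libraries and not between genes. The tables may have been normalised separately and are only set side by side. In bulk RNA, fewer cells of a type and less RNA per cell cannot be told apart.

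Promoter sequences are shown for 3 members, chosen for the shape of their courses: Col7a1, with a single early peak, Col1a2, with its largest step in units after day 10, and Col3a1, with almost no reads before then. They are the 250 bases before each start in RefSeq (GRCm38.p6), written 5′ to 3′ on the gene's own strand, at chr9:108953336-108953585 (plus strand), chr6:4505368-4505617 (plus strand) and chr1:45311288-45311537 (plus strand). Capitals mark the CCAAT box and GC box (GGGCGG) of Col7a1, the CCAAT box of Col1a2 and the TATA box (TATAAA) of Col3a1, and the CCAAT box of Col7a1 reads on the other strand as ATTGG.
Col7a1: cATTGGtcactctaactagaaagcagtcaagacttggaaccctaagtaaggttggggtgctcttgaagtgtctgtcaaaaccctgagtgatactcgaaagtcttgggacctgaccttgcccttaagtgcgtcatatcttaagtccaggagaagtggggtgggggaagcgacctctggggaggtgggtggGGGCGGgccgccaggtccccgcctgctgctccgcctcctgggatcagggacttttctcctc
Col1a2: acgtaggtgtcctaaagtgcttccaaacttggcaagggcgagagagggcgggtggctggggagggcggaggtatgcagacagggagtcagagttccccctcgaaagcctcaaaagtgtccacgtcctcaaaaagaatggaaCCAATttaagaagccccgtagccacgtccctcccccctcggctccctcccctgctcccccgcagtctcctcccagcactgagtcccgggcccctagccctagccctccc
Col3a1: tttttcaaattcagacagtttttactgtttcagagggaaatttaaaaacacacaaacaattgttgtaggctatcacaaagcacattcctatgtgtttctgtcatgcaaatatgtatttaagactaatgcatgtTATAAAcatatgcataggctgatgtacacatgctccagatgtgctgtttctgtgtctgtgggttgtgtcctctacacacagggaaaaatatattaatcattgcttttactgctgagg

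The CCAAT box began 249 bases before the start of Col7a1 and 109 bases before that of Col1a2. The GC box of Col7a1 began 61 bases before its start, and Col1a2 held 2 more at 205 and 188 bases, which are left in lower case. The TATA box of Col3a1 began 117 bases before its start, and neither Col7a1 nor Col1a2 held that motif. Searched on both strands over 250 bases, CCAAT was found in 12 of the 31 member promoters in the table and in 33.8% of all 32851 promoters. GGGCGG was found in 19 of 31 (32.7% of all), TATAAA in 4 of 31 (12.4% of all), and the AP-1 motif TGANTCA in 1 of 31, that of Col6a1 (6.75% of all). A match describes the letters in the window only.

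Collagen transcripts were a small part of the polyA RNA in ESCs and grew along both routes. In the EB course the 36 members together took 0.0764% of all counted reads at day 0, 0.0198% at day 1 and 0.0216% at day 2. They then took 0.163% at day 4, 0.474% at day 8, 0.818% at day 10 and 1.2% at day 13. In the EpiLC course without Dox the 27 members took 0.00719% at 0 h, 0.0205% at 6 h, 0.0345% at 24 h and 0.0644% at 96 h. These shares count reads, so long transcripts weigh more. The number of members at 10 units or more was 11 at day 1 and 32 at day 13 in the EB table, and 12 at 0 h and 14 at 96 h in the EpiLC course.

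**Figure D1:**
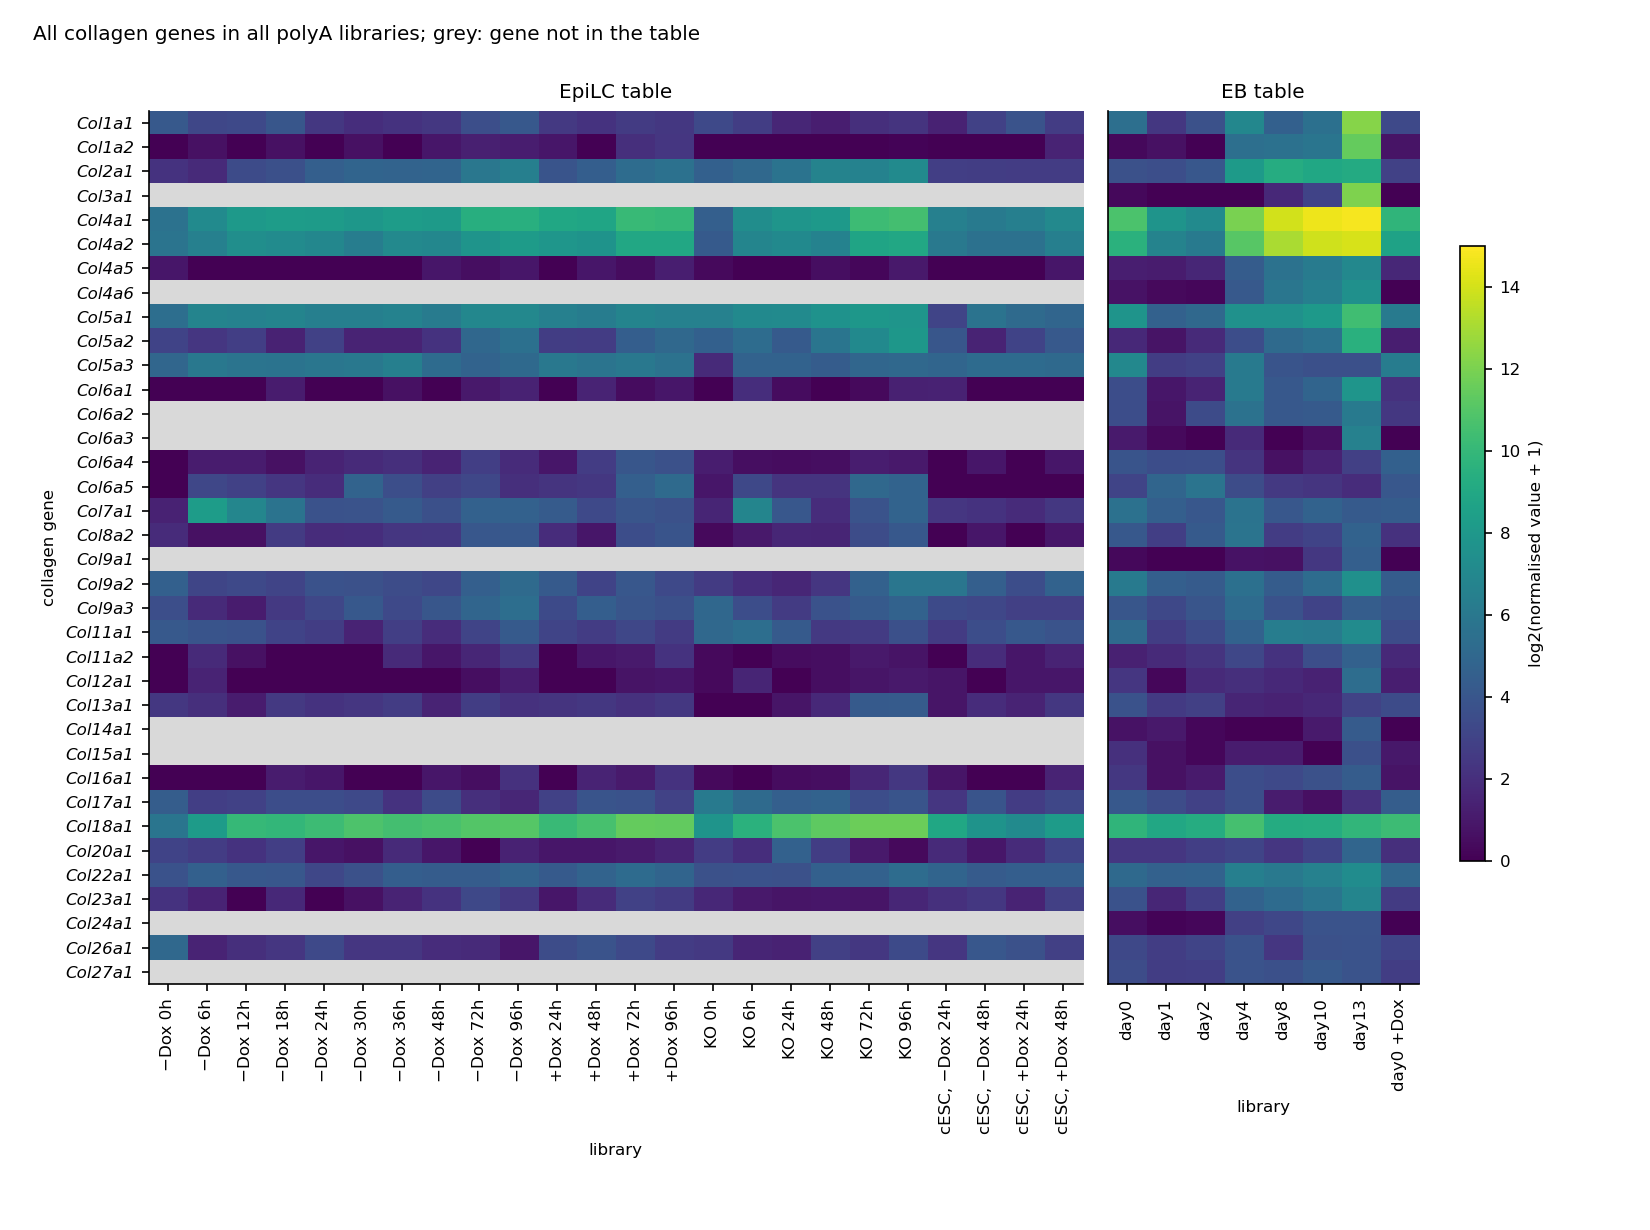
Heat map of log2(value + 1) for 36 collagen genes (rows, by collagen number) in the 24 EpiLC and cESC libraries and the 8 EB table libraries (columns), with 1 library per column and grey where a gene is absent from that table. The 4 basement membrane rows and those of Col1a1, Col1a2 and Col3a1 are brightest (highest) at EB day 13, and Col18a1 is high in every EpiLC column after 6 h.

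EB differentiation was accompanied by a rise of all 4 type IV chains and of 7 of 11 fibrillar chains. Of the 36 members 14 rose and 0 fell (limma, adjusted p below 0.05), where 26.9% of all 16753 genes were called, 17.3% higher and 9.61% lower. The median fitted change from day 0 to day 13 was 2.70 on the log2 scale for the members and 0.12 for all genes. The highest value lay at day 13 for 24 of 36 members, against 28.8% of all genes. Without the day 13 library 33 members and 16645 of all genes averaged at least 1 unit. Col6a3, Col9a1 and Col14a1 passed that filter only through day 13, so their place in this count was fixed by the filter. No member of the beaded filament, anchoring fibril, multiplexin or other network classes was called.

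Col4a1 and Col4a2, the main chains of every basement membrane, dipped before they rose. Col4a1 stood at 1723, 218, 144, 3977, 15852, 24788 and 27856 units on days 0, 1, 2, 4, 8, 10 and 13. Col4a2 stood at 777, 106, 72.7, 2204, 8708, 15305 and 17238 units on the same days. Both were lowest on day 2 and highest on day 13, and the 4 libraries from day 4 onward lay above all 3 earlier ones. The fitted log2 change was 6.38 ± 1.57 (SE, limma adjusted p = 0.0243) for Col4a1 and 6.84 ± 1.58 (adjusted p = 0.0203) for Col4a2. The pair supplied 60.4% of collagen reads at day 0, 19.1% at day 2 and 94.9% at day 10, and 72.4% at day 13.

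Their genes lie head to head on chromosome 8 in GRCm38.p6, with Col4a1 starting at 11312826 on the minus strand and Col4a2 at 11312805 on the plus strand, 21 bases apart. The ratio of Col4a1 to Col4a2 units was 2.22, 2.07, 1.98, 1.80, 1.82, 1.62 and 1.62 over the EB course, so the pair moved by similar folds. Col4a6 and Col4a5, minor type IV chains of the same arrangement, start at 141474076 and 141475419 on chromosome X, 1343 bases apart. Col4a5 stood at 1.36, 1.24, 2, 19.4, 50, 73.3 and 128 units. Col4a6 stood at 0.68, 0.29, 0.22, 16.9, 58.8, 87.2 and 182 units, of which the first 3 rest on 1 to 3 reads each. Both were at 2 units or less through day 2 and higher at each later sampling, with log2 changes of 6.60 ± 0.79 (limma adjusted p = 0.00325) and 7.91 ± 1.05 (adjusted p = 0.00432).

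The type I and type III chains followed a later schedule, most of their level in units being gained between day 10 and day 13. Col1a2, the second chain of type I collagen, stood at 0.23, 0.57, 0, 43.1, 47.1, 56.7 and 2751 units. Col3a1, the chain of type III collagen, stood at 0.23, 0, 0, 0, 2.35, 7.22 and 4322 units, the first value being 1 read. Neither gene exceeded 56.7 units before day 13, when 4952 and 7780 reads were counted. Col1a1, the other type I chain, stood at 44.3, 4.38, 12.4, 123, 23.5, 45 and 4921 units. The log2 change was 10.00 ± 1.64 for Col1a2 (limma adjusted p = 0.0083) and 7.91 ± 2.08 for Col3a1 (adjusted p = 0.0183), while that of Col1a1, 4.72 ± 2.08, missed the threshold (adjusted p = 0.093). Col1a1 was called without the day 4 library (4.54, adjusted p = 0.0196) and in edgeR on recovered reads (6.14, adjusted p = 0.036), and its change was 0.90 to 6.71 when 1 library was left out. Without the day 13 library the change was 6.65 for Col1a2 (adjusted p = 0.0557) and 2.36 for Col3a1 (adjusted p = 0.0736).

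Type V and type II chains also rose. Col5a2, a chain of the type V collagen that nucleates type I fibrils, stood at 2.27, 0.76, 2.44, 10.6, 35.3, 47.8 and 733 units (log2 change 7.19 ± 0.85, limma adjusted p = 0.00227). Col5a1, its partner, stood at 216, 24.8, 32.4, 194, 192, 278 and 1324 units (2.97 ± 0.98, adjusted p = 0.0251). In units, both gained most between days 10 and 13. The change of Col5a1 was 1.23 without day 13 (adjusted p = 0.167), and its call was also lost without day 2 or day 10. Col2a1, the main fibrillar collagen of cartilage, reached its plateau earlier, at 12.1, 10.95, 15.6, 292.5, 624, 483 and 577 units (6.99 ± 1.20, adjusted p = 0.0124). Col11a1, which copolymerises with type II, stood at 35.7, 5.62, 9.56, 25, 80.6, 73.9 and 149 units (2.97 ± 0.78, adjusted p = 0.0173). Col24a1 rose from 0.45 to 13.3 units. The other 3 fibrillar chains were not called, with Col5a3 at 129 units on day 0 and 11.7 on day 13, Col11a2 at 1.59 and 23.9, and Col27a1 at 10.2 and 13.3.

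Among the remaining classes 3 chains rose. Col23a1, a transmembrane collagen, stood at 12.5, 2.10, 5.78, 25.6, 37.7, 56.1 and 114 units (3.90 ± 0.88, limma adjusted p = 0.0189). Col22a1, a FACIT, stood at 34.1, 24, 25.3, 86.9, 64.7, 93.9 and 156 units (2.31 ± 0.58, adjusted p = 0.0358). Col9a1, a FACIT of cartilage, went from 0.23 units at day 0 to 22.2 at day 13, and was tested only because of its day 13 value. The type VI chains had their highest values at day 13 in 3 of 5 cases without being called, with Col6a1 at 228, Col6a2 at 71.7 and Col6a3 at 95 units on that day against 27.2, 17.8 and 0.56 on day 10. Col6a4 and Col6a5 were highest at other times, Col6a4 with 13.6 units at day 0 and Col6a5 with 53.3 units at day 2. Of the uncalled FACITs, Col9a2, Col12a1, Col14a1, Col16a1 and Col20a1 peaked at day 13 at 18.9 to 181 units, and Col9a3 peaked at day 4 at 37.5 units. Col18a1, high throughout, stood between 516 and 1518 units with a log2 change of 0.05, and Col15a1, the other multiplexin, did not pass 11.7 units. Col7a1 (15.8 to 52.5 units), Col8a2 (5.29 to 54.4), Col13a1 (1.76 to 12.7), Col17a1 (0.56 to 16.8) and Col26a1 (4.12 to 12.8) were likewise not called.

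**Figure D2:**
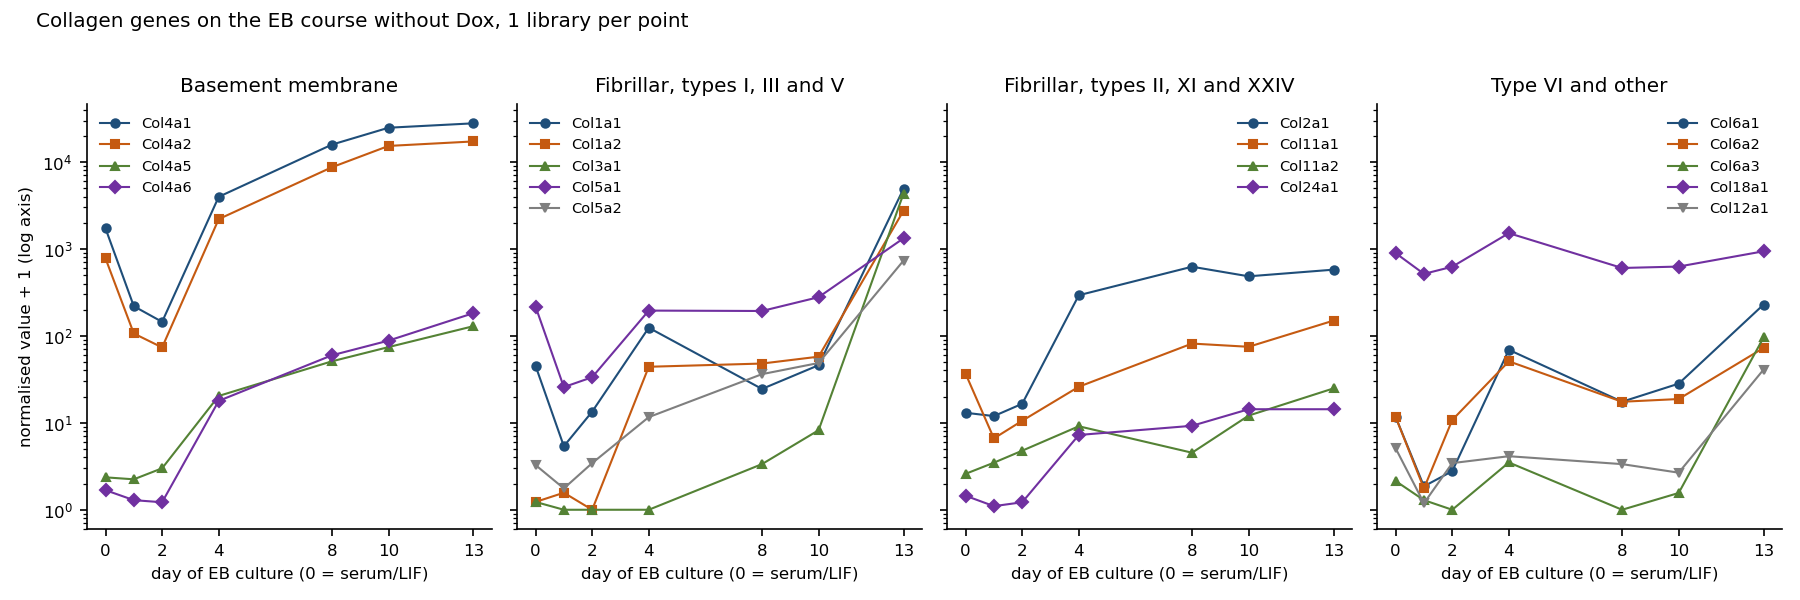
Normalised value + 1 on a log axis against day of EB differentiation for the collagen genes of 4 groups, with 1 library per point and no replicate error. Col4a1 and Col4a2 dip to day 2 and rise from day 4, and Col4a5 and Col4a6 are low through day 2 and rise from day 4. Col1a1, Col1a2 and Col3a1 step up between day 10 and day 13, after an earlier step of Col1a1 and Col1a2 at day 4.

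The machinery for making collagen moved in part with the chains. Of 31 collagen processing genes 11 rose and 3 fell, where 17.3% of all genes rose and 9.61% fell. The median log2 change of the 31 was 1.04. P3h2, a prolyl 3-hydroxylase that acts on type IV collagen, rose by 7.01 ± 1.07, Serpinh1, the collagen chaperone HSP47, by 5.96 ± 1.11, and Adamts3, a procollagen N-propeptidase, by 4.55 ± 0.75, while Pcolce2 fell by 4.44 ± 0.47. Of 16 other basement membrane genes 6 rose, among them the laminin chains Lamb1 (3.72 ± 0.99) and Lama4 (3.60 ± 0.95), and 1 fell. Of 8 collagen receptor genes 2 rose, Mrc2, an endocytic collagen receptor (3.88 ± 0.92), and Ddr1, a receptor kinase (2.34 ± 0.58). Of 6 degradation genes 2 rose, the metalloproteinase inhibitors Timp3 (4.94 ± 1.20) and Timp2 (4.36 ± 0.94), and Timp1 fell by 2.41 ± 0.47. All limma adjusted p values for the genes named here were between 0.00236 and 0.0401.

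Markers of other cell types moved over the same course, in which 17.3% of all genes rose and 9.61% fell. Of 8 primitive and parietal endoderm markers 7 rose, none was at 0 in any library, and their summed level was 69.6 units on day 2, 581 on day 4 and 2558 on day 8. Of 8 fibroblast and mesenchyme markers 1 was called (Twist2, higher). Their sum lay between 48.5 and 252.5 units up to day 10 and at 831 on day 13. Most of that last sum was Lum, at 0 to 0.56 units through day 10 and 431 on day 13, and Dcn, at 148. The markers did not rise together: Thy1 stood at 135 units on day 0, 162 on day 4 and 7.78 on day 13. Tbx18 stood at 12.5 units on day 0 and 11.7 on day 13. Of 5 endothelial markers 2 rose and 1 fell, with a sum of 29.4 to 166 units up to day 10 and 718 on day 13. Of 4 cartilage markers Sox9 rose and Acan fell, and all 4 neuroectoderm markers rose. The part of these cell types in the collagen values was not tested. Calls depended on single libraries: leaving out 1 library gave 6 calls (without day 10), 7 (without day 13), 8 (without day 2) and up to 21 (without day 4). The share of all genes called also moved, from 26.9% to 11.5%, 12.7%, 15.8% and 33% in those same fits. Col2a1, Col4a5, Col4a6 and Col5a2 were called in each of these fits, and Col4a1 was not called without day 1 (adjusted p = 0.053) or day 10 (0.0717), nor Col4a2 without day 10 (0.0644). Col22a1 and Col24a1 each lost the call in 5 of the 7 fits, and Col11a1 and Col23a1 (day 2, 10 or 13) each in 3. Col9a1 lost it without day 1, 2 or 10, and without day 13 it fell below the filter on low values and was not tested.

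In the EpiLC course the largest fitted collagen changes were rises of Col18a1, Col2a1 and Col4a1. Of 22 members with a mean of at least 1 unit, 15 were called (limma, adjusted p below 0.05), where 50.1% of all 16206 genes tested were called, 25.4% higher and 24.8% lower. By the fitted value at 96 h minus that at 0 h, 12 of the 15 were higher and 3 lower, 9 and 3 of them by at least 2-fold. The other 3, Col1a1, Col9a2 and Col11a1, dipped and returned with net changes of at most 0.65 ± 0.57, and the direction of these 3 and of Col7a1 turned under other settings. The median fitted log2 change from 0 h to 96 h was 1.70 for these members and -0.02 for all genes. The highest value lay at 96 h for 12 of the 22, against 15.6% of all genes. Without the 96 h library 21 members passed the filter. Col11a2 passed it only through 96 h, so its place in this count was fixed by the filter. The 5 members below the filter were Col1a2, Col4a5, Col6a1, Col12a1 and Col16a1, none above 3.4 units in this course.

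Col18a1, whose product can release the fragment endostatin, had the largest fitted change among the members. It stood at 56.5, 302.4, 1062.9, 994.2, 1268.2, 1793.5, 1459.2, 1654.9, 2004.5 and 2093.6 units at 0, 6, 12, 18, 24, 30, 36, 48, 72 and 96 h. The 0 h value lay below the other 9, and the fitted log2 change was 5.27 ± 0.32 (SE, limma adjusted p = 3.61e-06). In the EB table the same gene showed no called change.

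Col4a1 and Col4a2 both rose but by unequal amounts. Col4a1 stood at 48.7, 141.1, 280.8, 317.4, 299.1, 248.8, 309.5, 289.4, 690 and 706.4 units (log2 change 4.10 ± 0.33, limma adjusted p = 3.43e-05). Col4a2 stood at 53.9, 90.5, 170.7, 148.8, 124.5, 80.6, 132.5, 123, 220 and 297 units (2.62 ± 0.38, adjusted p = 0.00185). Each was lowest at 0 h, and the 72 h and 96 h libraries lay above all earlier ones. Their ratio was 0.904 at 0 h, 1.56 at 6 h, 2.13 at 18 h and 2.38 at 96 h, with 3.14 the highest at 72 h. The difference between the changes of the 2 genes was not tested.

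Col7a1, the anchoring fibril collagen, had a brief early peak. It stood at 1.7, 316.1, 115, 50.6, 12.7, 13.5, 18.3, 11.5, 24.5 and 24.7 units, from 2 reads at 0 h (95% exact Poisson interval 0.211 to 6.28 units) to 531 reads at 6 h (290 to 344 units). No other member was highest at 6 h, where 11.6% of all genes had their highest value. The 0 h library lay below all others, and each value after 18 h lay below that at 18 h. The DGCR8 knockout line showed the same shape at its sampled hours, with 1.9, 112.9, 16, 2.8, 13.5 and 26.7 units at 0, 6, 24, 48, 72 and 96 h. The fitted log2 change of Col7a1 between the ends, 3.26 ± 1.33 (limma adjusted p = 0.015), describes the peak poorly: it was -3.68 without the 0 h library, and 0.16 with a less flexible curve (adjusted p = 0.611).

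Of the fibrillar chains, 3 rose by more than 1 log2 unit. Col2a1 stood at 3.5, 2.4, 9.6, 11.6, 22.7, 27.6, 26.6, 27.4, 60.5 and 87.7 units (4.43 ± 0.64, limma adjusted p = 0.000309). Col5a2 stood at 7, 4.2, 6, 1.7, 6.4, 1.8, 1.8, 3.5, 31 and 45.5 units (3.01 ± 0.85, adjusted p = 0.00351), so it was low until 48 h and high at the last 2 hours. Col5a1 stood at 41.7, 109.5, 97.6, 107, 88.2, 87.1, 98.2, 76.1, 123.5 and 128.9 units (1.66 ± 0.30, adjusted p = 0.00557), and its 0 h value alone lay below 76.1. The type I chains stayed low. Col1a1 stood at 17.4, 8.3, 9, 15.1, 4.5, 2.9, 3.6, 4.4, 11 and 16.2 units, and Col1a2 between 0 and 1.5 units in the 10 libraries. Col1a1 was called (adjusted p = 0.0281) for its dip at 24 to 48 h, with a net log2 change of 0.23 ± 0.69, and Col11a1 (0.06 ± 0.65, adjusted p = 0.008) was lowest at 30 h, with 1.8 units. The FACIT Col9a2 (0.65 ± 0.57, adjusted p = 0.0175) dipped earlier, from 23.5 units at 0 h to 7.6 at 18 h, and stood at 35.3 at 96 h. Col5a3 (26.5 to 88.2 units) and Col11a2 (0 to 4.7) were not called.

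**Figure D3:**
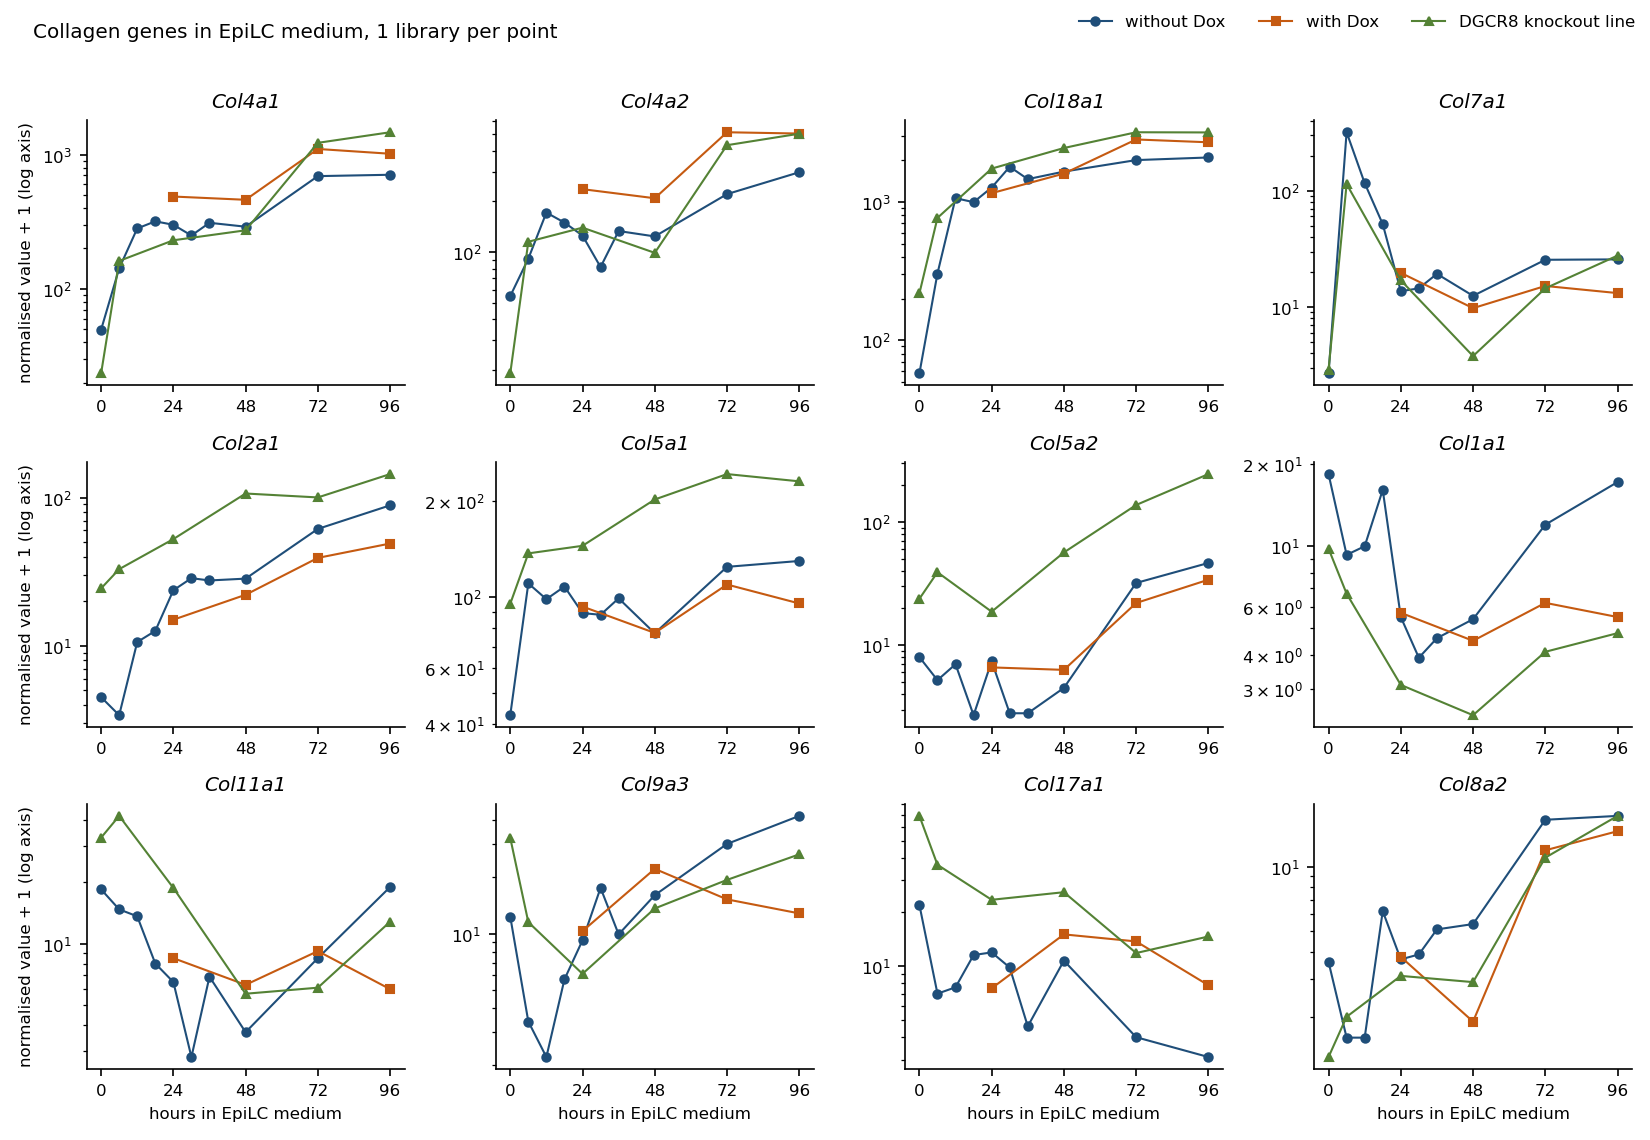
Normalised value + 1 on a log axis against hours in EpiLC medium for 12 collagen genes, with lines for KH2-ISY1 without Dox (10 libraries), with Dox (4) and the DGCR8 knockout (6), and 1 library per point. Col7a1 peaks at 6 h in both lines sampled then, and Col5a2 and Col2a1 lie higher in the knockout at each hour.

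The remaining calls were among low genes. Col9a3, a FACIT, stood at 11.3, 2.4, 1.2, 4.7, 8.2, 16.5, 8.9, 15, 29 and 41.3 units (1.75 ± 0.73, limma adjusted p = 0.00194). Col8a2, a network-forming collagen, went from 2.6 to 16.2 units (2.58 ± 0.82, adjusted p = 0.0107). The 3 that fell were Col26a1, from 33 to 0.9 units (-3.94 ± 0.88, adjusted p = 0.02), Col17a1, a transmembrane collagen of epithelial attachment, from 20.9 to 2.1 (-2.77 ± 0.74, adjusted p = 0.0407), and Col20a1, a FACIT, from 7 to 1.7 (-1.91 ± 0.90, adjusted p = 0.0453). Col6a4 (adjusted p = 0.0711), Col6a5 (0.0694), Col13a1, Col22a1 and Col23a1 were not called and stayed at or below 26 units. Without the 0 h library the change of Col26a1 was -0.32 and that of Col5a1 0.33, neither called. Leaving out 1 library also ended the call of Col26a1 (12 h), Col7a1 (12 h), and Col8a2 and Col9a2 (96 h). Col17a1 kept its call only without 6, 36 or 48 h, Col20a1 only without 24, 36 or 96 h, and Col1a1 only without 6, 18, 48 or 72 h.

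Genes that act on collagen were called in both directions, as were 25.4% (higher) and 24.8% (lower) of all genes tested. Of 27 processing genes 8 rose and 9 fell, with a median log2 change of -0.08. Pxdn, which forms the sulfilimine cross-links of type IV collagen, rose by 4.34 ± 0.33 and Fkbp10, a collagen prolyl isomerase, by 3.25 ± 0.36, while the C-proteinase enhancers Pcolce and Pcolce2 fell by 3.28 ± 0.31 and 2.54 ± 0.42. Of 14 other basement membrane genes 4 rose and 8 fell (median -1.04). Nid1, the nidogen that links laminin to type IV collagen, fell by 5.40 ± 0.47 and the laminin chain Lama1 by 5.22 ± 0.47, while Lamb1 rose by 2.65 ± 0.50. The type IV chains and these 2 partners moved in opposite directions, Nid1 going from 6027 units at 0 h to 177.9 at 96 h and Lama1 from 1967.8 to 48.5. Of 7 receptor genes 3 rose and 0 fell (Mrc2 by 6.20 ± 0.75, Ddr1 by 3.26 ± 0.30, and the integrin chain Itga1 by 2.08 ± 0.68), and of 6 degradation genes 4 rose and 1 fell (Timp3 by 3.10 ± 0.67, Mmp14 by 2.16 ± 0.31, Timp1 by -3.09 ± 0.77). The limma adjusted p of each gene named here was at most 0.00953.

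Of 6 endoderm markers 3 fell in this course (Gata6, Gata4 and Sox7) and 1 rose (Dab2), and their summed level was 100.8 units at 0 h and 28.2 at 96 h, with none at 0. The summed level of the 4 mesenchyme markers in the table was 131.3 units at 0 h, 58.7 to 91.3 at 6 to 48 h, 164.5 at 72 h and 184.7 at 96 h. Most of the last sum was Thy1, the 1 marker of the 4 that rose (33.9 units at 0 h, 137 at 96 h). The other 2 called fell, Pdgfrb from 52.2 to 26 units and Tbx18 from 28.7 to 0.4. All 3 endothelial markers fell, and of 3 cartilage markers tested Acan and Comp rose. Of all genes tested 25.4% rose and 24.8% fell. The markers are a few genes of each list. The part of these cell types in the collagen values of the EpiLC course was not tested.

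Induction of ISY1 in EpiLCs was accompanied by higher Col4a1 and Col4a2. With Dox, Col4a1 stood at 486, 459.6, 1099.6 and 1013.1 units at 24, 48, 72 and 96 h, against 299.1, 289.4, 690 and 706.4 without. Col4a2 stood at 235.5, 207.9, 513.5 and 504.5 units with Dox against 124.5, 123, 220 and 297 without. Each Dox library lay above its partner of the same hour, although the 2 arms overlapped over the whole course. The paired log2 difference was 0.64 ± 0.08 for Col4a1 and 0.91 ± 0.11 for Col4a2 (moderated limma SE over 4 pairs, limma adjusted p = 0.0318 for both, higher in 4 of 4 pairs). The SEs and p values of the paired fits rest on the spread of a difference over hours, not between cultures. Each gene's spread is drawn by limma toward that of genes of like level.

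No other collagen was called: of 24 members tested 2 were higher and 0 lower, where 2.83% of 16117 genes were called, 1.78% higher and 1.05% lower. The median difference was 0.12 for the members and -0.01 for all genes. Col1a1 stood at 4.7, 3.5, 5.2 and 4.5 units with Dox (-0.70 ± 0.36, limma adjusted p = 0.287), and Col1a2 at 0.9, 0, 3 and 4.1. Col26a1 (1.34 ± 0.37, adjusted p = 0.092) and Col2a1 (-0.63 ± 0.17, adjusted p = 0.0894) missed the threshold. The type IV calls were lost without the 48 h pair (adjusted p = 0.142 for both), without the 72 h pair (0.24 for both), without the hour as a block (0.747 for Col4a1, 0.613 for Col4a2) and without limma's intensity trend (0.101 and 0.1). In each of these fits 0 of all genes tested were called. The difference was 0.62 to 0.68 for Col4a1 and 0.81 to 0.97 for Col4a2 when 1 pair was left out. In edgeR on the recovered reads of the 24 h and 48 h pairs, an alternative chosen after seeing the data, Col4a1 was called and Col4a2 was not (adjusted p = 0.0511).

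Among other basement membrane genes 5 of 14 were higher under Dox and 0 lower, with the laminin chain Lama1 (1.14 ± 0.15) among the 5. Of all genes tested 1.78% were higher and 1.05% lower. Of 27 processing genes Serpinh1 alone was called (0.88 ± 0.09), and 0 of 7 receptor and 0 of 6 degradation genes were. The endoderm markers Sox7 (2.08 ± 0.34) and Gata6 (2.03 ± 0.33) were 2 of 6 called, both higher, and the 6 markers summed to 107.6, 70.2, 86.1 and 86.5 units with Dox against 44.5, 21.3, 30.5 and 28.2 without. Pdgfra was at 0 in the 24 h library with Dox. The limma adjusted p of these genes was at most 0.0371. Without the 48 h pair, the 72 h pair, the block or the trend none of these calls remained, since 0 genes were called. The part of endoderm in the type IV values was not tested.

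In serum/LIF cells many collagens were lower with Dox, in a comparison of 1 library in each arm and hence with no test. With Dox 12 of 29 members with a mean of at least 1 unit were lower by at least 2-fold on the log2(value + 1) scale and 0 were higher, where 8.2% of 16036 genes were lower and 1.18% higher by that measure. The median difference was -0.81 for the members and -0.04 for all genes. Col1a1 stood at 44.3 units without Dox (95% exact Poisson interval 38.3 to 51.0) and 8.81 with Dox (6.20 to 12.1). Col5a1 stood at 216 (203 to 231) and 69.1 (61.3 to 77.5), and Col8a2 at 16.8 (13.2 to 21.1) and 3.33 (1.82 to 5.59). Col9a2, Col11a1, Col7a1, Col23a1, Col16a1, Col6a1, Col6a2, Col12a1 and Col15a1 completed the 12. The type IV chains were also lower, Col4a1 at 1723 (1684 to 1762) and 890 (862 to 919) units and Col4a2 at 777 (751 to 804) and 405 (386 to 425), opposite to their direction in EpiLCs. Col18a1 was higher, at 894 and 1249 units. These intervals cover counting error only, and the difference between serum/LIF and EpiLC responses was not tested.

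Of 29 processing genes 8 were lower by at least 2-fold with Dox in serum/LIF, as were 8.2% of all genes. Among the 8 were the cross-linking oxidase Loxl2 (705 and 119 units), the prolyl hydroxylase subunit P4ha1 (419 and 78.1) and the lysyl hydroxylase Plod2 (829 and 358). Of 4 mesenchyme markers with enough reads 3 were lower, namely Pdgfrb (44.1 and 12.1 units), Tbx18 (12.5 and 2.86) and Thy1 (135 and 51.9), and the 8 markers in the table summed to 240.7 units without and 95.95 with Dox. Twist2, Prrx1, Dcn and Lum were at 0 with Dox, and Dcn was at 0 without. None of 7 endoderm markers changed by 2-fold. The part of such cells in the collagen values was not tested.

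In the DGCR8 knockout line 5 collagens were higher and 1 was lower than in KH2-ISY1 at the same hours. Of 23 members tested 6 were called, where 42.4% of 16267 genes were called, 18.1% higher and 24.3% lower. The median difference was 0.08 for the members and -0.08 for all genes. Under median-ratio scaling all genes split into 3570 higher and 3121 lower in place of 2941 and 3958, and the 6 collagen calls were the same. This comparison uses some of the control libraries of the Dox comparison, so the 2 are not independent.

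Col5a2 showed the largest difference. It stood at 22.8, 38.1, 17.7, 55.6, 136.5 and 244 units in the knockout at 0, 6, 24, 48, 72 and 96 h, against 7, 4.2, 6.4, 3.5, 31 and 45.5 in KH2-ISY1 (2.33 ± 0.30, SE over 6 pairs, limma adjusted p = 0.000477). Col2a1 stood at 23.4, 31.9, 51.5, 105.6, 99.3 and 143.2 units against 3.5, 2.4, 22.7, 27.4, 60.5 and 87.7 (1.70 ± 0.34, adjusted p = 0.00403). Col17a1 stood at 67.8, 35.7, 22.4, 24.8, 10.8 and 13.6 units against 20.9, 6, 10.9, 9.7, 3 and 2.1 (1.68 ± 0.24, adjusted p = 0.000808). Each was higher in 6 of 6 pairs, and Col17a1 still declined with hour in the knockout libraries. Col18a1 (0.93 ± 0.19, adjusted p = 0.00424) reached 3187.1 units at 72 h, and Col5a1 (0.89 ± 0.15, adjusted p = 0.00157) reached 242.1, both higher in 6 of 6 pairs.

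Col1a1 was lower in 6 of 6 pairs, at 8.8, 5.7, 2.1, 1.4, 3.1 and 3.8 units against 17.4, 8.3, 4.5, 4.4, 11 and 16.2 (-1.13 ± 0.26, limma adjusted p = 0.00767). Col1a2 was listed at 0 in the knockout except for 0.1 units at 96 h. Whole reads were recovered only at 48 h in the knockout, so the reads behind most of these low values are not known. The type IV chains did not differ beyond the spread over hours. Col4a1 stood at 22.5, 160.5, 229.1, 272, 1221.7 and 1464.8 units in the knockout (0.08 ± 0.25, adjusted p = 0.802) and Col4a2 at 18.1, 114.3, 138.8, 98.1, 430.2 and 503.4 (0.06 ± 0.28, adjusted p = 0.875). Both were below KH2-ISY1 at 0 h and above it at 72 and 96 h. Col5a3 (-1.05 ± 0.38, adjusted p = 0.0508) fell just short of the threshold. Without the hour as a block Col5a2 and Col17a1 alone were called, where 21.4% of all genes were. In that limma fit the adjusted p was 0.154 for Col2a1, 0.524 for Col18a1, 0.0516 for Col5a1 and 0.0825 for Col1a1.

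**Figure D4:**
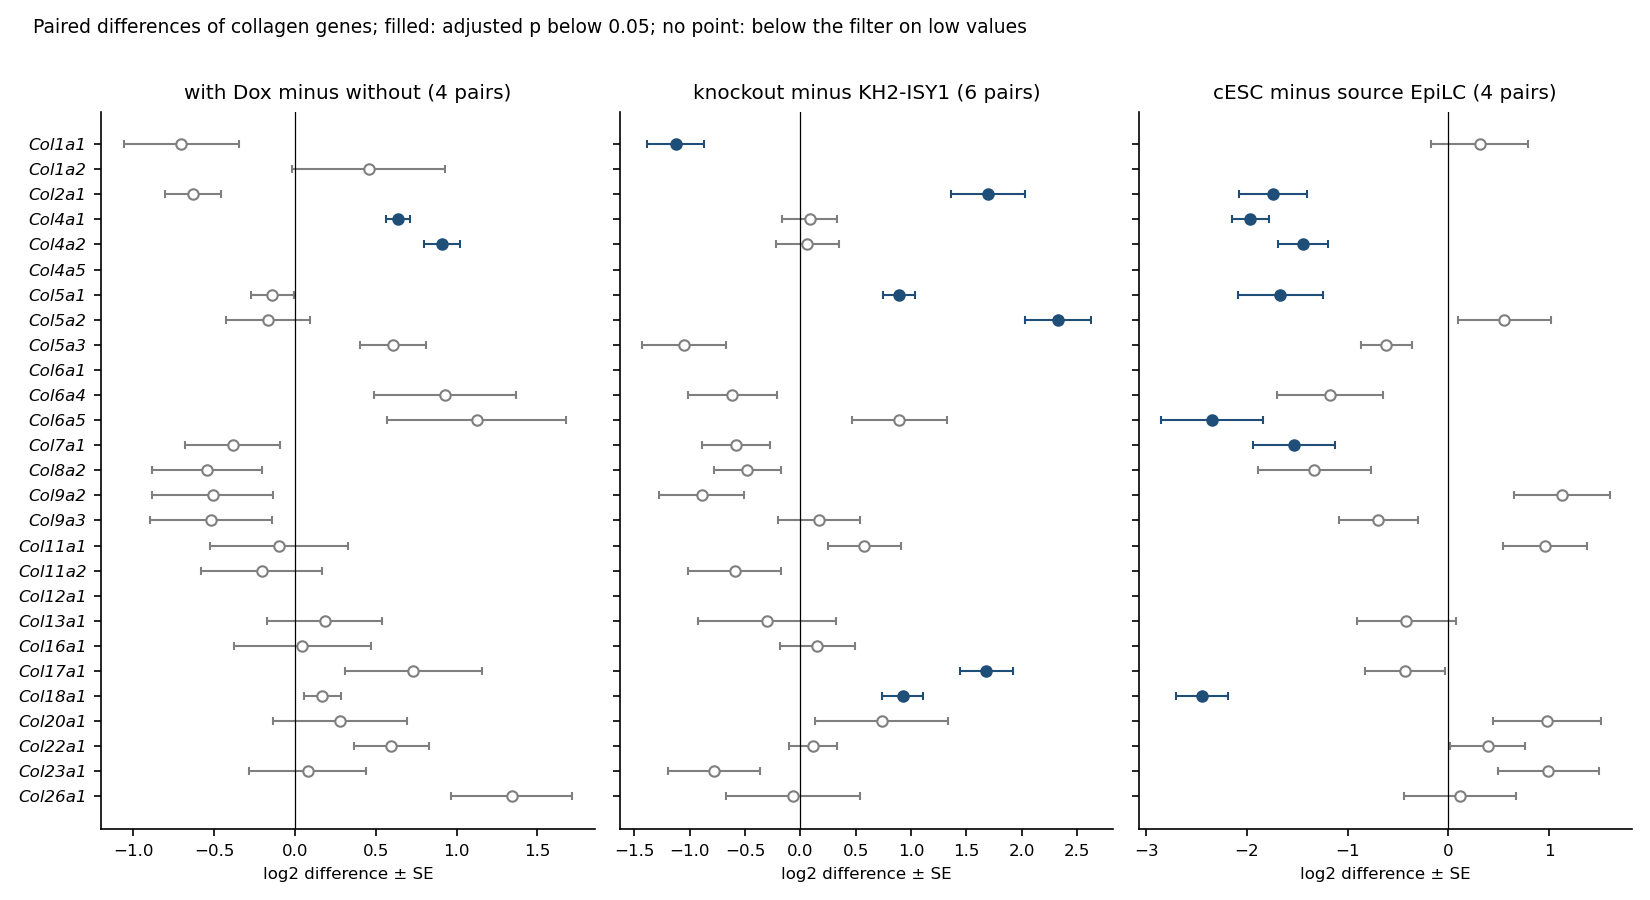
Log2 differences with SE for the tested collagen genes in 3 comparisons: with against without Dox (4 pairs), DGCR8 knockout against KH2-ISY1 (6 pairs) and cESC against source EpiLC (4 pairs), with called genes marked. Col4a1 and Col4a2 stand above 0 with Dox and below 0 after the return to 2i/LIF, and Col5a2 stands farthest above 0 in the knockout.

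Whether either difference changed with hour was tested in the same libraries. For the knockout difference 0 of 23 members were called by limma (0.523% of all genes were), with 10 at an unadjusted p below 0.05. Col13a1, a transmembrane collagen, came nearest at 4.85 ± 0.83 log2 units from first to last hour (adjusted p = 0.0523), at 0, 0, 0.8, 2.3, 17.8 and 18.9 units in the knockout against 4.3, 3, 3.6, 1.8, 5.5 and 3.4. It was called under 4 alternative settings. For the Dox difference 0 of 24 members were called (2.84% of all genes were), with 7 at an unadjusted p below 0.05, and without the 24 h pair 2 were called, Col9a3 and Col6a5.

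Collagen-related genes were called in both directions, as were 42.4% of all genes. Of 27 processing genes 7 were higher and 5 lower in the knockout, a share near that background, Pcolce2 (1.61 ± 0.25) and the oxidase Loxl4 (1.45 ± 0.49) higher, Loxl2 (-1.19 ± 0.20) and the lysyl hydroxylase Plod1 (-1.09 ± 0.27) lower. Of 14 other basement membrane genes 6 were higher, among them the laminin chain Lamb3 (1.75 ± 0.54), and 2 lower. Of 6 degradation genes 3 were lower, Timp2 (-1.64 ± 0.47) and the proteinases Mmp9 (-1.44 ± 0.50) and Mmp2 (-1.39 ± 0.35), and 0 higher. Of 7 receptor genes the collagen-binding kinase Ddr2 was called, higher by 0.68. The limma adjusted p of the genes named with an SE was at most 0.0424. Endoderm markers split 1 higher and 2 lower of 6 with Dab2 at 0 in the 0 h knockout library, and 2 of 4 mesenchyme markers were lower, summing to 37.5 to 79.8 units in the knockout against 60.1 to 184.7 in KH2-ISY1 at the same hours. All 3 endothelial markers were higher and 1 of 3 cartilage markers was lower. Their part in the result was not tested.

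The microRNA family miR-29 is a known repressor of many collagen mRNAs, and DGCR8 is needed for its processing. Its member in the small RNA tables was miR-29a, listed without an arm. The RefSeq mature miR-29a-3p lies at chr6:31062673-31062694 on the minus strand (GRCm38.p6) and is shown with its seed, bases 2 to 8, in capitals because the collagen sites pair with it.
miR-29a-3p: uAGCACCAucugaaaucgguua
In KH2-ISY1 miR-29a stood at 17.9 units in 2i/LIF and 61.1 at EpiLC 48 h, or 45.6 and 267 ppm of the summed microRNA values of the library. In serum/LIF it stood at 21.4 units (77.1 ppm) without Dox and 13.4 (34.1 ppm) with Dox, and at 27.1 (196 ppm) on EB day 1 and 26.3 (542 ppm) on day 4. In V6.5 ESCs, another mouse line, it stood at 7.1 units (18.5 ppm) with control siRNA and at 10.2 (48.2 ppm) and 9.0 (56.1 ppm) with siRNA against Isy1. Each value is 1 library and no test was made, and no small RNA library of the knockout was used here. Of 6 tested collagens named as miR-29 targets, 2 were higher (Col5a1 and Col5a2) and 1 lower (Col1a1) in the knockout, with a median difference of 0.07, beside 42.4% of all genes called.

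On return from EpiLC medium to 2i/LIF 7 collagens fell and 0 rose. Of 21 members tested these were Col18a1, Col6a5, Col4a1, Col2a1, Col5a1, Col7a1 and Col4a2, where 18.4% of 16075 genes were called, 5.62% higher and 12.8% lower. The median difference was -0.62 for the members and -0.14 for all genes. Median-ratio scaling moved the split of all genes from 903 higher and 2057 lower to 1273 and 1631 and left the same 7 collagens called. The EpiLC libraries here are also those of the Dox comparison.

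Col18a1 stood at 481.7 and 205.5 units in the cESCs from 24 h and 48 h EpiLCs without Dox and at 145.6 and 301.8 in those with Dox, against 1268.2, 1654.9, 1155.1 and 1600.9 in the source EpiLCs (-2.45 ± 0.26, SE over 4 pairs, limma adjusted p = 0.000875). Col4a1 stood at 93.3, 72.7, 87.7 and 134.2 units against 299.1, 289.4, 486 and 459.6 (-1.97 ± 0.18, adjusted p = 0.000451). Col4a2 stood at 65, 47.3, 47.4 and 89.2 units against 124.5, 123, 235.5 and 207.9 (-1.45 ± 0.25, adjusted p = 0.00698). For these genes the cESC and EpiLC values did not overlap. Col2a1 stood at 5.8, 5.5, 5.3 and 5.4 units against 22.7, 27.4, 14 and 21.1 (-1.74 ± 0.33, adjusted p = 0.0109). Col5a1 stood at 7.5, 51.8, 35.1 and 28.8 units against 88.2, 76.1, 92.5 and 76.3 (-1.67 ± 0.42, adjusted p = 0.0295). Those groups did not overlap either.

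Col6a5, a beaded filament chain, was at 0 in all 4 cESC libraries against 2.7 to 6.2 units, and Col7a1 was at 2.6 to 4.5 units against 8.8 to 18.7 (adjusted p = 0.0167 and 0.0345 in limma). Col1a1 was not called, at 1.7, 6.4, 13.2 and 5.4 units (0.31 ± 0.48, adjusted p = 0.67), and Col1a2 was at 0 in 3 cESC libraries and 1.8 in the other. Col18a1, Col4a1 and Col4a2 were called in each fit that left out 1 pair. The calls of Col7a1 (any pair), Col6a5 (48 h without Dox, or either pair with Dox), Col5a1 (either pair with Dox) and Col2a1 (48 h with Dox) were lost by such omission, which left 3 to 6 calls.

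The cESCs did not take on the collagen levels of the starting 2i/LIF library in every respect. Of 19 members with a mean of at least 1 unit, the 4 cESC libraries all lay above the 0 h value for 5 (Col18a1, Col4a1, Col22a1, Col7a1 and Col2a1), a share of 26.3% against 14.8% of all genes. Col7a1 (1.7 units at 0 h, 2.6 to 4.5 in cESCs) and Col2a1 (3.5 and 5.3 to 5.8) lay near the floor. There 3 reads are 2.61 units at 0 h, so counting error alone may place these 2 above. They all lay below it for 5 others (Col26a1, Col17a1, Col11a1, Col1a1 and Col9a3), 26.3% against 35.8% of all genes. Col18a1, at 56.5 units in the 0 h library, was 145.6 to 481.7 in cESCs. The 0 h level is a single library, and no test was made.

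**Figure D5:**
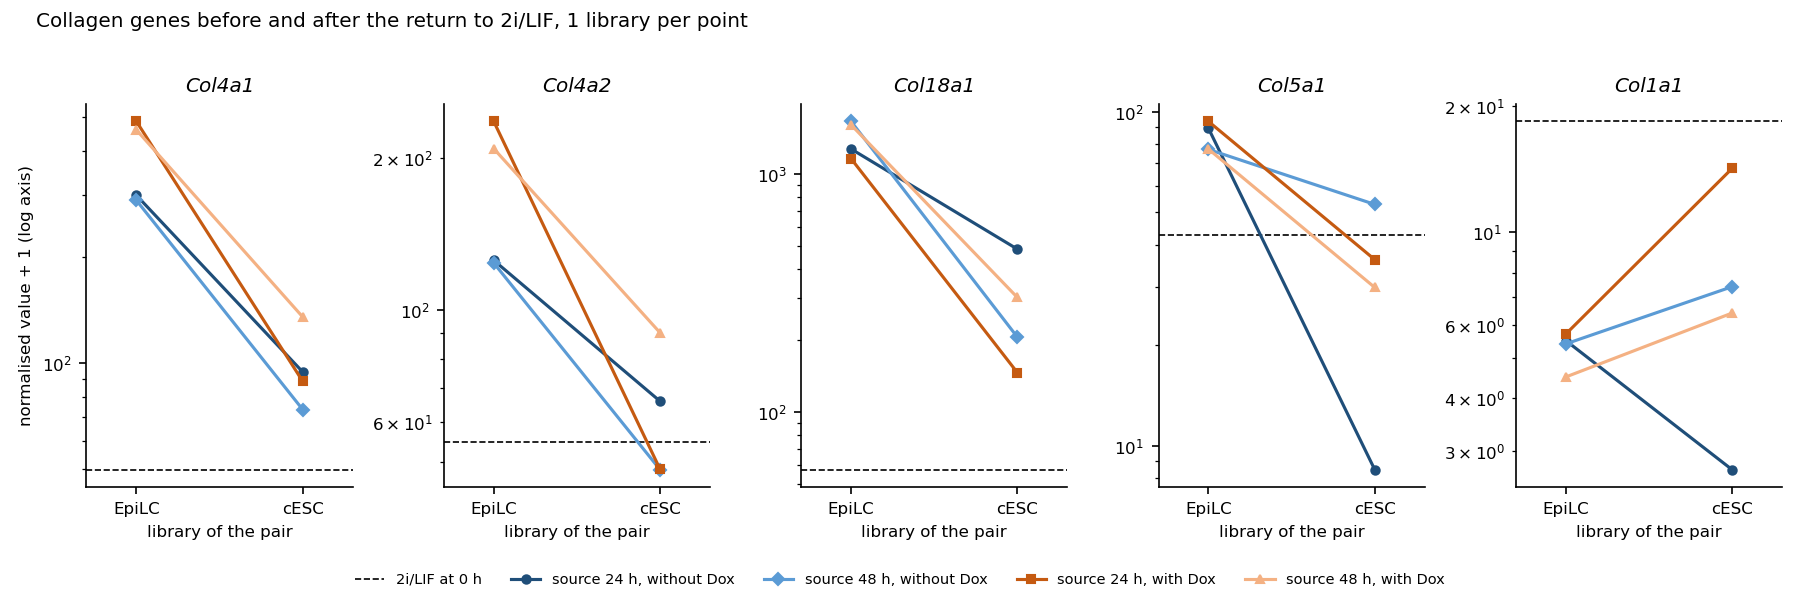
Normalised value + 1 on a log axis for Col4a1, Col4a2, Col18a1, Col5a1 and Col1a1 in source EpiLCs and in the cESCs made from them, 1 line per pair (24 h and 48 h, with and without Dox), with the 0 h 2i/LIF library as a dashed line. The first 4 genes fall in each of the 4 pairs, and Col1a1 falls only in the 24 h pair without Dox and is higher in the cESCs of the others.

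Related genes in the return to 2i/LIF were mixed in direction, where 5.62% of all genes were higher and 12.8% lower. Of 27 processing genes 1 was higher (P4ha1, 2.19 ± 0.37) and 5 lower, Fkbp10 (-3.38 ± 0.25), Pxdn (-2.57 ± 0.44) and the C-proteinase Bmp1 (-2.21 ± 0.41) among them. Of 7 receptor genes 2 were lower, Itga1 (-4.16 ± 0.55) and Ddr1 (-1.59 ± 0.25). Of 14 other basement membrane genes 3 were higher and 0 lower, led by Lama1 (2.75 ± 0.34) and Nid1 (1.54 ± 0.33), the reverse of the type IV chains. Of 6 degradation genes Mmp9 (-2.35 ± 0.37) and Mmp14 (-1.42 ± 0.23) were lower and Timp1 (1.29 ± 0.17) higher. The limma adjusted p of these genes was at most 0.0166. Endoderm markers summed to 20.9 to 39.6 units in cESCs, with Sox7 at 0 in 2 libraries and Hnf4a in 1, against 21.3 to 107.6 in the source EpiLCs. Their part in the result was not tested.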

How the data were processed

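PolyA RNA (TruSeq stranded kit, per the labels) and small RNA values came as deposited tables of the unit signal, normalised by the authors. Bowtie and the builds GRCm38 and mm9 are named per the submitters' processing notes, without roles. The gene counter, annotation and normalisation are not given in the sources used here. In 24 of 32 polyA libraries the low deposited signal values fell on multiples of a single step, which gave back whole reads. There 95.6% to 100% of low values lay within 0.1 reads of a whole number. Whole reads were not recovered in the knockout libraries other than 48 h, at EpiLC 96 h without Dox, or at 72 and 96 h with Dox. The depth and the worth of 1 read are not known for those libraries. A gene at 0 may have an expected count of up to 3 reads. In the small RNA data 1 column could not be tied to a sample and was not used.

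Values were analysed as log2(value + 1), which understates changes of low genes. All genes averaging at least 1 unit in the libraries being compared entered the test, run with limma 3.58.1 in R 4.3.3 (empirical Bayes with intensity trend, two-sided, Benjamini-Hochberg adjusted p below 0.05). Dox, knockout and return differences were fitted over pairs with the hour or source as a block, and courses as natural splines of the square root of time (3 degrees of freedom for EpiLC, 2 for EB), the change being the fitted last minus first value. With 1 library per condition and time, p-values and SEs rest on the spread over hours or around the curve, which may be technical. In each fit that spread is moderated by limma toward genes of like level. The edgeR 4.0.16 fit on recovered reads was added after seeing the data. The fits were tested on simulated data.

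The members and gene lists were chosen with earlier results of these data known. Library values are given for Col1a1, Col1a2, Col4a1 and Col4a2 and for up to 12 called members with a log2 change of at least 1 and a mean of at least 10 units per comparison, and up to 4 called genes are named per pathway list. The values of 1 pathway gene are not reported here. Col7a1, Col13a1 and some others were described beyond this rule after their values were seen. Alternatives were pseudocounts of 0.5 and 4, no filter, a mean of at least 10, other scalings, no trend, no block, other curves and leaving out single libraries or pairs.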

Additional observations from a re-analysis of the deposited data

How the results depend on the processing

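The number of collagens called in the EpiLC course was 9 with a mean of at least 10 units in place of 15, because fewer members were tested. In the EB course, 6 to 21 of 36 were called when 1 library was left out, and 11.5% to 34.9% of all genes. The 2 Dox calls became 0 without the intensity trend, 0 without the block, 0 to 3 when 1 pair was left out, and 1 in edgeR (chosen after seeing the data). In each Dox fit with 0 collagen calls, 0 of all genes tested were called. The 6 knockout calls became 2 without the block, where 21.4% of all genes were called in place of 42.4%. For the change of the knockout difference with hour, 1 member (Col13a1) was called with a pseudocount of 0.5, with no filter, and under median-ratio and TMM-like scaling. For that of the Dox difference, 0 to 2 were called when 1 pair was left out. The 7 return calls became 3 to 6 when 1 pair was left out, with 7.7% to 18.8% of all genes called against 18.4% in the main fit. The causes of these changes other than the filter were not tested.

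Direction turned in the EpiLC course for 4 genes. The log2 change of Col11a1 was -1.01 with a 2 df spline, -1.22 in edgeR and -1.14 to 0.24 when 1 library was left out. That of Col1a1 was -0.56, -0.53 and -0.49 to 0.98 in the same fits. That of Col9a2 was -0.15 in edgeR and -0.21 to 2.22 with 1 library left out, and that of Col7a1 was -3.68 to 3.505 with 1 library left out.

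Median-ratio scaling moved the median log2 change of all genes from 0.12 to -0.01 in the EB course and from -0.14 to -0.02 in the return, and the collagen calls of both were the same genes. No paired analysis by replicate number was possible because each condition and time has 1 library. Where whole reads were recovered, a read was worth up to 0.934 units, which limits every statement on members below about 3 reads.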
